A study of Mus musculus with 6 samples.

Results

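The matrix metalloproteinases (MMPs) and their tissue inhibitors (TIMPs) considered here are 10 genes, chosen by symbol from the deposited expression table of 18112 genes. They comprise 7 proteases, namely the gelatinases *Mmp2* and *Mmp9*, the stromelysins *Mmp3* and *Mmp10*, the collagenase *Mmp13*, the membrane-anchored *Mmp14* and the secreted *Mmp19*, and 3 inhibitors, *Timp1*, *Timp2* and *Timp3*. All 10 had a row, and 9 reached the mean of at least 0.5 FPKM that the test required, *Mmp9* being the exception. FPKM is the number of sequenced fragments of a gene scaled by the length of its transcript and by the size of the library, so that levels of different genes can be set side by side.

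RNA was sequenced from primary aortic vascular smooth muscle cells (VSMCs) of C57BL/6 mice, with 3 libraries per genotype. Both genotypes are homozygous for a *Smyd2* allele with an exon between loxP sites. The control libraries came from *Smyd2* fl/fl littermates without Cre and are called Flox here, as in the labels. The knockout libraries came from *Smyd2* SMC-/- animals, in which *Tagln-Cre* (also named SM22α-Cre) removes that exon in cells that use the *Tagln* promoter, and are called KO. *Smyd2* encodes a lysine methyltransferase, and the comparison asks which RNAs differ in VSMCs without it. According to the labels the cells were grown in medium with 10% FBS and collected at passage 6, whereas the study's methods describe an earlier passage and overnight starvation. No treatment distinguished the groups, age and sex of the donors are not in the labels, and nothing in the labels says whether the 3 libraries of a genotype came from separate animals or cultures. The p-values therefore measure the spread between these libraries, which may be technical.

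MMPs are zinc-dependent endopeptidases that are made as inactive precursors and, once activated, cut collagens, gelatin, proteoglycans and other parts of the extracellular matrix. TIMPs are small secreted proteins that bind the active site of MMPs and block it, and a complex of MMP14 and TIMP2 at the cell surface also serves to activate the precursor of MMP2. In the arterial wall this system is known for opening the basement membrane around smooth muscle cells when they migrate, and for the loss of matrix in aneurysms and plaques.

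*Mmp13*, *Mmp3* and *Mmp10* lie in one cluster of Mmp genes on chromosome 9, and the bases just before their starts are shown because these 3 genes had the largest ranges of levels among the 10. Each sequence is the 120 bases before the start of the transcript in RefSeq (assembly GRCm38.p6), all on the plus strand, *Mmp13* at chr9:7272394-7272513, *Mmp3* at chr9:7445702-7445821 and *Mmp10* at chr9:7502222-7502341. The window of *Timp1*, the only inhibitor called with the replicate block described further on, lies at chrX:20870046-20870165 on the plus strand and is shown beside them. Capitals mark the AP-1 letters TGAGTCA, or their reverse complement TGACTCA, and the TATA letters TATAAA.
*Mmp13*: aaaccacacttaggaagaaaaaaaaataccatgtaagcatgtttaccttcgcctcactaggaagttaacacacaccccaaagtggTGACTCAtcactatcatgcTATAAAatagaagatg
*Mmp3*: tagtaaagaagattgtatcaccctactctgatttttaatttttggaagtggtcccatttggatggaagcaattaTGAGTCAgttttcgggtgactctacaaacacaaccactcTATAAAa
*Mmp10*: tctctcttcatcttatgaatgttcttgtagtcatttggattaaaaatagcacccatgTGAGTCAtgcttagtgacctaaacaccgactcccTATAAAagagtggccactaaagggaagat
*Timp1*: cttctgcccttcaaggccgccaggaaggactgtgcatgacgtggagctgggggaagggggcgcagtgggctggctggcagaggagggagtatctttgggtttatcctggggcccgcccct
In *Mmp13* the AP-1 letters, on the minus strand, covered bases 35 to 29 before the start and the TATA letters bases 16 to 11. In *Mmp3* they covered bases 46 to 40 and 7 to 2, and in *Mmp10* bases 63 to 57 and 29 to 24. Over the 250 bases before the start, read on both strands, AP-1 letters were in 4.46% and TATA letters in 12.4% of 32851 mouse promoters, and 0.721% held both. Of the 10 genes, 7 had a promoter entry (also *Mmp14*, *Timp2* and *Timp3*), and the 4 other than the cluster genes held neither set of letters in that window. Both searches came with those for the ETS letters CCGGAA (in 3952 of the promoters) and for the CArG box (in 482), the element bound by serum response factor, and neither was in any of the 7 windows. The windows of the 3 cluster genes had 37.2% to 40.4% G or C, against a median of 52.4% over all promoters, and those of *Mmp14* and the TIMPs had 54.4% to 68.0%. These matches describe letters and not binding sites.

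The libraries held an estimated 17500000 to 20000000 fragments, so that every gene except *Mmp9* and *Mmp10* had about 90 fragments or more in each library. The libraries of replicate 1 stood apart from the others in both genotypes. Spearman's rho across genes was 0.992 between Flox replicates 2 and 3 and 0.989 between KO replicates 2 and 3, against 0.920 to 0.934 between replicate 1 and the others of its genotype. Results are therefore given for all 3 replicates and for replicates 2 and 3 alone (2 libraries per genotype), and also with the replicate number as a block where that changed the call. Same-numbered libraries deviated together across genes, but Flox 2 with KO 3 and Flox 3 with KO 2 did so as well (correlations 0.461 and 0.439, against 0.46 for Flox 2 with KO 2), so that the numbers separated replicate 1 from the others and not replicate 2 from replicate 3. *Smyd2* itself was at 7.87, 3.1 and 3.0 FPKM in Flox 1, 2 and 3 and at 1.67, 0.40 and 0.80 FPKM in KO 1, 2 and 3, so that every KO library lay below every Flox library. Its log2 fold change was -1.48 (SE 0.389, limma adjusted p = 0.105, and 0.0189 with the block). The fit of all 3 replicates without a block thus did not call the deleted gene itself.

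The label of smooth muscle was checked against marker genes, and the cells carried *Acta2* but almost no *Myh11* or *Des*. *Acta2*, smooth muscle actin, was at 682 to 761 FPKM in Flox and 201 to 268 FPKM in KO, while *Myh11*, the smooth muscle myosin heavy chain, and *Des*, desmin, were at most at 0.22 FPKM in any library. The summed level of the 7 smooth muscle markers was 814 to 922 FPKM in Flox and 263 to 429 FPKM in KO, and none of them was at 0 in every library. Most of that sum was *Acta2*, and other members differed from it. *Smtn* was at 52.0 to 55.03 FPKM in Flox and 45.9 to 63.1 FPKM in KO. *Lmod1* was at 3.28, 2.71 and 2.83 FPKM in Flox 1, 2 and 3 and at 1.22, 5.44 and 6.02 FPKM in KO 1, 2 and 3. Its replicate 1 pair was thus opposite to the other pairs. *Cnn1* was at 21.03, 4.86 and 5.11 FPKM in Flox and at 2.7, 5.07 and 4.32 FPKM in KO. *Tagln* was at 70.3 to 80.5 FPKM in Flox and at 12.5, 87.3 and 57.1 FPKM in KO 1, 2 and 3. All 7 fibroblast and adventitial markers were present above 1 FPKM in some library, with sums of 301 to 918 FPKM in Flox and 81.1 to 571 FPKM in KO, the lowest value of each range being replicate 1. Most of these 7 markers were lower in KO, with a median log2 fold change of -1.32. *Dpt* was at 65.5 to 144 FPKM in Flox and 0.63 to 3.31 FPKM in KO, and *Cd34* at 71.1 to 98.2 and 3.39 to 23.6 FPKM. *Pdgfra* was at 18.1 to 31.85 and 4.85 to 11.8 FPKM, and *Pi16* and *Ly6a* were lower in KO in all 3 pairs. *Lum* and *Dcn* went the other way. *Lum* was at 0 to 1.31 FPKM in Flox and 0.26, 14.5 and 10.4 FPKM in KO 1, 2 and 3, and *Dcn* was higher in KO in all 3 pairs. The 5 epithelial and mesothelial markers summed to 9.88 to 65.8 FPKM in Flox and 15.3 to 131 FPKM in KO. Each range was again lowest in replicate 1, and *Epcam* was at most at 0.06 FPKM. Nearly all of that sum was *Upk3b* and *Msln*, which went opposite ways in replicates 2 and 3. *Upk3b* was at 9.02, 38.5 and 38.2 FPKM in Flox 1, 2 and 3 and at 14.5, 121 and 67.0 FPKM in KO 1, 2 and 3. *Msln* was at 0.52, 26.0 and 23.8 FPKM in Flox and at 0.74, 10.1 and 6.92 FPKM in KO. The 7 endothelial markers summed to between 1.53 and 5.40 FPKM and the 6 macrophage and leukocyte markers in the table to between 4.95 and 8.96 FPKM over all libraries. *Cdh5* and *Ptprc* were at most at 0.02 FPKM. *Kdr* was at 0.47 to 0.84 FPKM in Flox and 0.96 to 5.15 FPKM in KO, whereas *Pecam1* was at 0.56 to 0.92 and 0 to 0.18 FPKM. *Csf1r* was at 0.48 to 0.58 FPKM in Flox and 1.14 to 1.66 FPKM in KO, whereas *Lyz2* was at 1.04 to 4.04 and 1.01 to 1.69 FPKM. Fibroblasts are known to make many MMPs and TIMPs, and the part of these marker differences in the results below was not tested. In such bulk samples, fewer cells of a type and less RNA per cell cannot be told apart.

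*Timp2* and *Timp3* were the most abundant RNAs of the system, and 3 of the proteases made up nearly all of the protease RNA. By mean FPKM over the 6 libraries the order was *Timp2* (959), *Timp3* (621), *Mmp14* (305), *Mmp2* (203), *Mmp3* (182), *Timp1* (169), *Mmp13* (19.5), *Mmp19* (13.5), *Mmp10* (1.86) and *Mmp9* (0.0567). *Timp2* exceeded *Timp3* in all 6 libraries, *Timp3* exceeded *Mmp14* in 5 of 6, and *Mmp14* exceeded *Mmp2* in all 6. *Mmp2*, *Mmp3* and *Timp1* had no fixed order, since *Mmp2* was above *Mmp3* in 3 libraries and *Mmp3* above *Timp1* in 3. *Mmp13* was above *Mmp19* in the KO libraries of replicates 2 and 3 and below it in the other 4. *Mmp14*, *Mmp2* and *Mmp3* together held 97.3% to 97.5% of the summed protease FPKM in Flox and 91.3% to 96.2% in KO. The genes also differed in how far their levels ranged, the highest library being 28.2 times the lowest for *Mmp13*, 10.1 times for *Mmp10* and 9.97 times for *Mmp3*, but 1.62 times for *Mmp2* and 2.01 times for *Mmp14*.

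**Figure D1:**
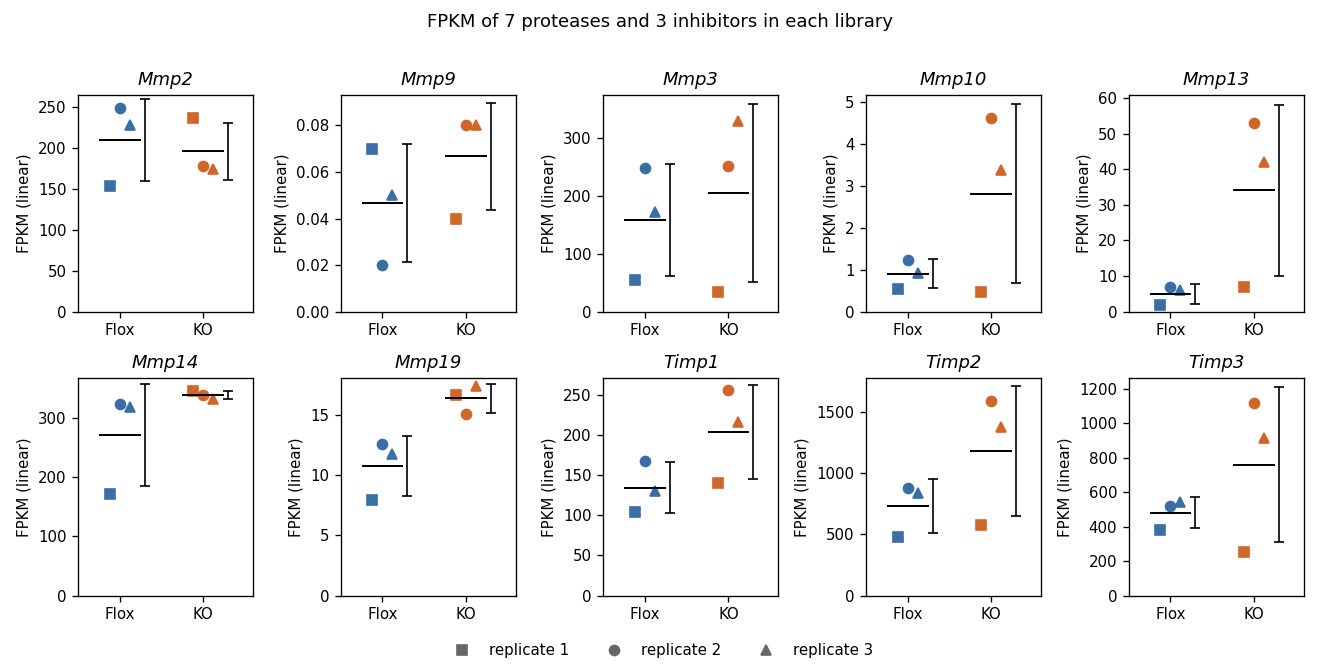
FPKM (linear axes from 0, a separate scale for each gene) of the 10 genes in 3 Flox (blue) and 3 KO (orange) libraries; squares, circles and triangles are replicates 1, 2 and 3, horizontal lines are means and bars are ± SD (n = 3). All KO points lie above all Flox points for *Mmp13*, *Mmp14* and *Mmp19*, and the replicate 1 squares lie below the other 4 points for *Mmp3*, *Mmp10*, *Timp2* and *Timp3*.

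Of the gelatinases, only *Mmp2* was expressed at a level that allowed a comparison. *Mmp2*, which cuts gelatin and the type IV collagen of basement membranes (NCBI Gene 17390, chromosome 8, 92827291 to 92853420), was at 153, 248 and 228 FPKM in Flox 1, 2 and 3 and at 236, 177 and 174 FPKM in KO 1, 2 and 3. The groups overlapped, with the lowest Flox library below all KO libraries and the highest KO library being replicate 1. Its mean was 210 ± 49.9 FPKM in Flox and 196 ± 35.03 FPKM in KO (SD, n = 3 each), a log2 fold change of -0.08 (SE 0.225, limma adjusted p = 0.884), and this sign turned to 0.04 after rescaling to TPM and after quantile normalization. In replicates 2 and 3 alone *Mmp2* fell by 0.44 on the log2 scale (adjusted p = 0.0251), whereas in the replicate 1 pair KO was 1.54 times Flox. *Mmp9* (NCBI Gene 17395, chromosome 2, 164940780 to 164955850), the gelatinase best known from inflammatory cells, was listed at 0.07, 0.02 and 0.05 FPKM in Flox and 0.04, 0.08 and 0.08 FPKM in KO. These values correspond to about 1 to 5 fragments a library, and no difference was detectable at this depth.

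The stromelysins cut proteoglycans, laminin and fibronectin and can activate other MMPs. *Mmp3* (NCBI Gene 17392, chromosome 9, 7445822 to 7455975) was at 55.2, 249 and 172 FPKM in Flox and at 33.2, 252 and 331 FPKM in KO. The replicate 1 libraries were the lowest of each genotype, and the Flox range lay within the KO range. Its log2 fold change was 0.08 (SE 0.957, limma adjusted p = 0.975), with pair differences of -0.72, 0.02 and 0.94 in replicates 1, 2 and 3, and its sign turned in 3 of the 6 fits that left out 1 library (range -0.55 to 1.11). *Mmp10* (NCBI Gene 17384, chromosome 9, 7502352 to 7510240) was at 0.55, 1.24 and 0.92 FPKM in Flox and at 0.46, 4.63 and 3.38 FPKM in KO, which corresponds to between about 13 and 148 fragments. KO 2 and KO 3 were above all Flox libraries and KO 1 was the lowest of all 6. Its log2 fold change of 0.81 on the log2(FPKM + 1) scale, which understates changes at such levels, had an SE of 0.503 (adjusted p = 0.432). In replicates 2 and 3 alone *Mmp10* rose by 1.26 on that scale (SE 0.174, adjusted p = 0.0021), and the KO level was 3.73 and 3.67 times the Flox level in those pairs against 0.836 times in the replicate 1 pair.

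*Mmp13*, the main rodent collagenase for fibrillar collagen, showed the largest difference among the 10 genes. *Mmp13* (NCBI Gene 17386, chromosome 9, 7272514 to 7283331) was at 1.88, 6.95 and 6.05 FPKM in Flox and at 7.02, 53.1 and 42.1 FPKM in KO. Every KO library was above every Flox library, although KO 1 exceeded Flox 2 by only a small margin, and replicate 1 was the lowest library of both genotypes. The mean was 4.96 ± 2.71 FPKM in Flox and 34.1 ± 24.1 FPKM in KO (SD, n = 3 each), and within same-numbered pairs KO was 3.73, 7.64 and 6.96 times Flox. The log2 fold change was 2.29 (SE 0.776, adjusted p = 0.173), and the two-sided exact permutation test gave p = 0.1, the smallest that 3 against 3 libraries allow. With the replicate block *Mmp13* rose with an SE of 0.275 and an adjusted p of 0.0201, and in replicates 2 and 3 alone it rose by 2.69 (SE 0.135, adjusted p = 2.54e-05).

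*Mmp14*, the membrane-anchored protease that activates the MMP2 precursor (NCBI Gene 17387, chromosome 14, 54431612 to 54445364), was at 171, 322 and 319 FPKM in Flox and at 344, 338 and 332 FPKM in KO. The groups did not overlap, but Flox 2 and Flox 3 lay just below the KO libraries and Flox 1 was far below the rest. Its mean was 271 ± 86.0 FPKM in Flox and 338 ± 6.04 FPKM in KO (SD, n = 3 each), with a log2 fold change of 0.38 (SE 0.256, adjusted p = 0.476). Without Flox 1 that fell to 0.08, the lowest of the fits that left out 1 library, and in replicates 2 and 3 alone it was 0.06 (SE 0.113, adjusted p = 0.706).

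*Mmp19*, a secreted protease of basement membrane components (NCBI Gene 58223, chromosome 10, 128790910 to 128800824), was at 7.95, 12.6 and 11.7 FPKM in Flox and at 16.65, 15.04 and 17.34 FPKM in KO. Every KO library was above every Flox library, and the KO libraries, replicate 1 included, lay close together. The mean was 10.8 ± 2.46 FPKM in Flox and 16.3 ± 1.18 FPKM in KO (SD, n = 3 each), the log2 fold change was 0.58 (SE 0.188, adjusted p = 0.158, unadjusted p = 0.0188), and the two-sided exact permutation test gave p = 0.1. In replicates 2 and 3 alone *Mmp19* rose by 0.38 (SE 0.113, adjusted p = 0.039). Exons of *Tmem198b* on the opposite strand overlap those of *Mmp19*, and as the sources used here do not say whether strand was used in counting, the *Mmp19* level is uncertain. *Tmem198b* was at 16.0 to 22.3 FPKM in Flox and 12.1 to 29.6 FPKM in KO, highest in replicate 1 of both genotypes.

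All 3 TIMPs had higher means in KO, and for each of them the KO libraries of replicates 2 and 3 were above every Flox library. *Timp1*, which inhibits most soluble MMPs but MMP14 only weakly (NCBI Gene 21857, chromosome X, 20870166 to 20874735), was at 104, 168 and 131 FPKM in Flox and at 141, 256 and 216 FPKM in KO. The groups overlapped because KO 1 lay below Flox 2. The mean was 134 ± 32.0 FPKM in Flox and 204 ± 58.7 FPKM in KO (SD, n = 3 each), and KO was 1.35, 1.52 and 1.65 times Flox in the 3 same-numbered pairs. The log2 fold change was 0.58 (SE 0.272, adjusted p = 0.293), while with the replicate block *Timp1* rose with an SE of 0.106 and an adjusted p of 0.0393, and in replicates 2 and 3 alone it rose by 0.66 (SE 0.154, adjusted p = 0.017). *Timp1* lies within *Syn1* on the opposite strand without shared exons, and *Syn1* was at most at 3.68 FPKM.

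*Timp2*, the partner of MMP14 in the activation of MMP2 as well as an inhibitor (NCBI Gene 21858, chromosome 11, 118301069 to 118355740, minus strand), was at 479, 882 and 843 FPKM in Flox and at 579.9, 1590.0 and 1378 FPKM in KO. KO 2 and KO 3 were the highest libraries, and the replicate 1 libraries were the lowest. The mean was 734 ± 222 FPKM in Flox and 1183 ± 533 FPKM in KO (SD, n = 3 each), with a log2 fold change of 0.61 (SE 0.430, adjusted p = 0.492). KO exceeded Flox in every pair, by 1.21, 1.80 and 1.63 times, and in replicates 2 and 3 alone *Timp2* rose by 0.78 (SE 0.138, adjusted p = 0.006). *Cep295nl* lies in *Timp2* on the same strand without shared exons and was at most at 5.81 FPKM.

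*Timp3*, the TIMP that stays bound to the matrix and also inhibits ADAM17 (NCBI Gene 21859, chromosome 10, 86300372 to 86349506), was at 380.0, 522 and 543 FPKM in Flox and at 253, 1117 and 912 FPKM in KO. KO 2 and KO 3 were above all Flox libraries, whereas KO 1 was below all of them. The log2 fold change was 0.42 (SE 0.547, adjusted p = 0.731), and leaving out 1 library moved it between 0.02 and 1.08, where without KO 1 the adjusted p was 0.0491. In replicates 2 and 3 alone *Timp3* rose by 0.92 (SE 0.143, adjusted p = 0.00343), and in the replicate 1 pair KO was 0.666 times Flox. *Syn3*, with exons that overlap *Timp3* on the opposite strand, was at most at 0.70 FPKM.

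Counted together, none of the 9 tested genes passed limma at an adjusted p of 0.05 over all 12565 tested genes, of which 2.44% passed (1.23% as higher in KO). At an unadjusted p under 0.05 there were 2, *Mmp13* and *Mmp19*, against 20.3% of all tested genes. At the cutoffs of the study's methods, a fold change over 2 and an adjusted p under 0.01, applied to the same limma fit, 0 of the 9 and 0.422% of all genes passed. The study reported more changed genes, from an analysis made at BGI whose test its methods do not name, so the counts are not comparable. With the replicate block 2 passed, *Mmp13* and *Timp1*, where 10.4% of all genes did, and with a block that only separated replicate 1 from the others 4 passed (*Mmp13*, *Mmp19*, *Timp1* and *Timp2*, all higher in KO), where 20.3% did and 9.17% as higher in KO. Without KO 1 the calls were *Mmp10*, *Mmp13* and *Timp3*, all higher, against 5.46% of all genes and 2.97% called higher. In replicates 2 and 3 alone 6 passed as higher in KO (*Mmp10*, *Mmp13*, *Mmp19*, *Timp1*, *Timp2* and *Timp3*) and 1 as lower (*Mmp2*), where 11.9% of all genes were called higher and 17.2% lower.

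The direction of the differences depended on the pair for a part of the genes. The groups did not overlap for 3 of the 9, all higher in KO, while 28.1% of all tested genes did not overlap and 13.1% did so with KO higher. The 3 same-numbered pairs had the same sign for 5 of the 9 (*Mmp13*, *Mmp14*, *Mmp19*, *Timp1* and *Timp2*), always with KO higher, where 55.1% of all tested genes had the same sign and 25.8% were higher in every pair. For the other 4, *Mmp2*, *Mmp3*, *Mmp10* and *Timp3*, the replicate 1 pair had the opposite sign to both other pairs, which was so for 23.1% of all tested genes. Both replicate 1 libraries were below the other 4 for *Mmp3*, *Mmp10*, *Timp2* and *Timp3*, which held for 13.6% of all genes. The median log2 fold change was 0.58 over the 9 genes and -0.02 over all tested genes, and rescaling to TPM moved the latter by 0.11.

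**Figure D2:**
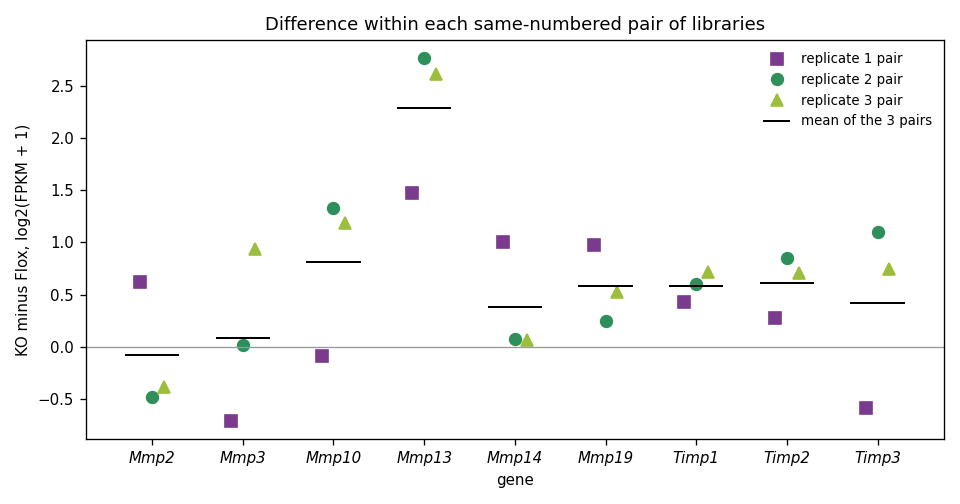
Difference KO minus Flox in log2(FPKM + 1) within each same-numbered pair of libraries for the 9 tested genes, with replicates 1, 2 and 3 as purple squares, dark green circles and light green triangles, and the mean of the 3 pairs as a line. *Mmp13* is above 0 in all pairs (1.48, 2.77 and 2.61), whereas the replicate 1 point lies on the other side of 0 from both others for *Mmp2*, *Mmp3*, *Mmp10* and *Timp3*.

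To set proteases against inhibitors, the FPKM of the 7 proteases and of the 3 TIMPs were summed in each library. This compares RNA and says nothing of enzyme activity, which also depends on activation. The protease sum was 390.5, 839.9 and 737 FPKM in Flox 1, 2 and 3 and 638, 840.4 and 899.7 FPKM in KO 1, 2 and 3. The inhibitor sum was 963, 1572 and 1516 FPKM in Flox and 973.5, 2963 and 2507 FPKM in KO. TIMP RNA thus exceeded protease RNA in all 6 libraries, and KO 2 and KO 3 had the highest inhibitor sums by a wide margin while KO 1 was close to Flox 1.

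The ratio of protease to inhibitor RNA was 0.405, 0.534 and 0.486 in Flox and 0.655, 0.284 and 0.359 in KO. The KO libraries lay on both sides of the Flox range, with KO 1 the highest and KO 2 and KO 3 the lowest of all 6. The mean log2 ratio was -1.08 ± 0.203 in Flox and -1.30 ± 0.623 in KO (SD, n = 3 each), a difference of -0.22 that was smaller than the spread between the KO libraries. In same-numbered pairs the KO ratio was 1.62, 0.531 and 0.738 times the Flox ratio, and in replicates 2 and 3 alone the log2 difference was -0.68. For replicates 2 and 3 the inhibitor sums of KO were 1.89 and 1.65 times those of Flox and the protease sums 1.00 and 1.22 times, while in replicate 1 the inhibitor sums were nearly equal (1.01 times) and the protease sum was 1.63 times higher.

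*Timp2* was the largest part of the inhibitor sum in every library. It held 49.7% to 56.1% of inhibitor RNA in Flox and 53.7% to 59.6% in KO, and *Timp1* 8.65% to 10.8% and 8.63% to 14.4%. Among the proteases, *Mmp3* ranged more widely, from 5.20% of the sum in KO 1 and 14.1% in Flox 1 to between 23.3% and 36.7% in the other 4 libraries. *Mmp2* held 29.5% to 39.3% of the sum in Flox and 37.0%, 21.1% and 19.3% in KO 1, 2 and 3.

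**Figure D3:**
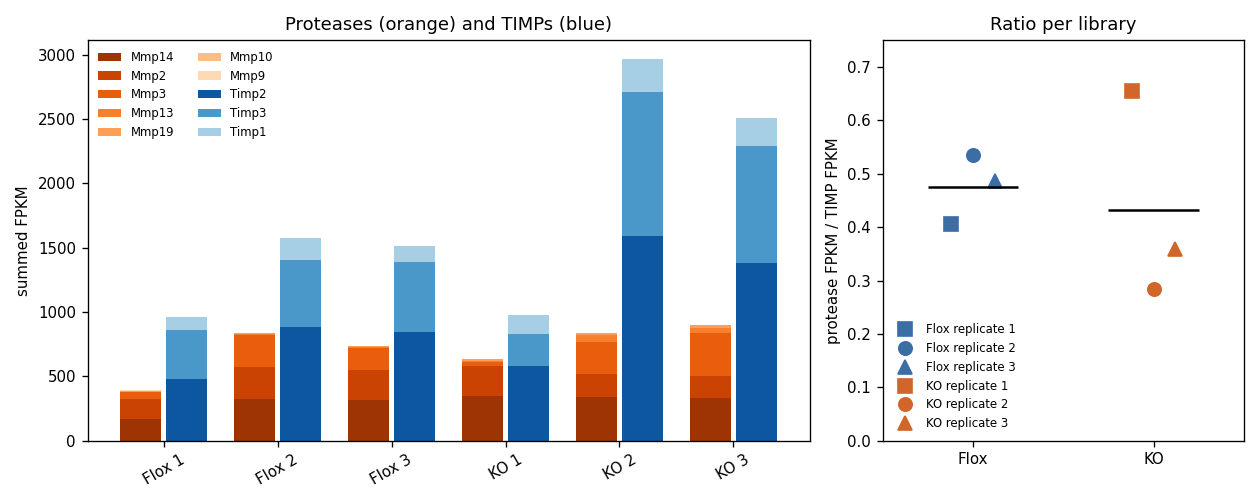
Left, FPKM of the 7 proteases (orange shades) and 3 TIMPs (blue shades) stacked for each library from 0; right, the ratio of the 2 sums in each library, with the group mean as a line. The TIMP stack is taller in every library, and the KO ratios (0.655, 0.284 and 0.359) lie on both sides of the Flox ratios.

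*Mmp13*, *Mmp3* and *Mmp10* belong to a row of 9 Mmp genes that spans 427 kb of chromosome 9 in the GENCODE annotation of GRCm38, from 7272514 to 7699585, and 7 of these had a row in the table. Along the chromosome their order was *Mmp13*, *Mmp12*, *Mmp1b*, *Mmp3*, *Mmp10*, *Mmp8* and *Mmp27*. Only *Mmp3* and *Mmp13* reached 5 FPKM in any library. *Mmp8*, the neutrophil collagenase, was listed at 0, 0.19 and 0.17 FPKM in Flox and 0.29, 0.49 and 1.01 FPKM in KO, too low for the test. *Mmp27* was at 0.21, 0.81 and 0.94 FPKM in Flox and 1.26, 0.63 and 0.81 FPKM in KO (log2 fold change 0.22, adjusted p = 0.694). *Mmp12*, the macrophage elastase, was at most at 0.27 FPKM, and *Mmp1b* was listed at 0 in 5 of the 6 libraries.

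Of the genes that flank the row, *Dcun1d5* before it was at 28.5 to 29.2 FPKM in Flox and 27.9 to 34.98 FPKM in KO, and *Tmem123* after it was at 57.4 to 71.8 FPKM in Flox and 67.7 to 81.3 FPKM in KO. Within the row the mean of KO over the mean of Flox was 6.87 for *Mmp13*, 3.13 for *Mmp10* and 1.29 for *Mmp3*.

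**Figure D4:**
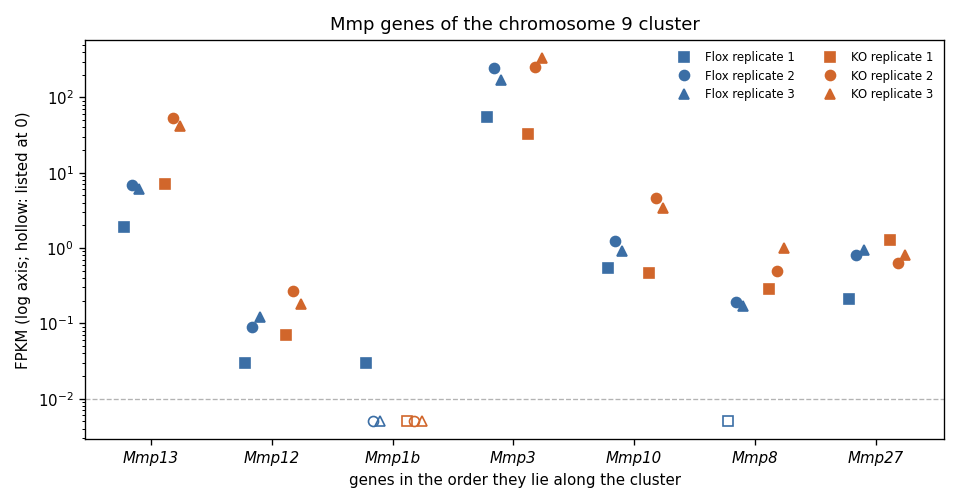
FPKM on a log axis of the 7 Mmp genes of the chromosome 9 cluster that have a row, in their order along the chromosome, with Flox in blue, KO in orange and replicates 1, 2 and 3 as squares, circles and triangles; hollow symbols under the dashed line are values listed at 0. *Mmp3* is the most abundant in every library, and for *Mmp13* the KO 2 and KO 3 points (53.1 and 42.1 FPKM) are well above the other 4.

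For each tested gene the 2 genes with the most similar profile were taken from 11166 genes of at least 1 mean FPKM, by Pearson's r of log2(FPKM + 1) over the 6 libraries, which share the genotype difference and the separate position of replicate 1. With so few libraries such values are a description only. *Mmp13* was nearest to *Clca3a2* (r = 0.996) and *Nid2* (0.995), and *Mmp10* to *Col4a3* (0.999) and *Tnfsf15* (0.993). *Mmp3* was nearest to *Xbp1* (0.995) and *Arsg* (0.99), *Mmp2* to *Fbxo4* (0.995) and *Gm14305* (0.991), *Mmp14* to *Epb41l4a* (0.997) and *Pxmp4* (0.991), and *Mmp19* to *Cmtm3* (0.998) and *Rnf150* (0.996). *Timp1* was nearest to *Acat1* (0.992) and *Chid1* (0.988), *Timp2* to *Igfbp6* (0.997) and *Tmeff2* (0.996), and *Timp3* to *Cdh23* (0.996) and *Jak1* (0.987). None of the 10 MMP and TIMP genes was among the 2 nearest of another. This says little of their likeness, since only 2 of 11166 genes were kept and *Mmp9* was too low to be a candidate. Between the 9 tested genes r ranged from -0.37 (*Timp3* with *Mmp2*) to 0.967 (*Timp1* with *Mmp13*). It was 0.958 for *Timp2* with *Mmp10*, 0.942 for *Mmp13* with *Mmp10* and -0.0349 for *Mmp3* with *Mmp2*.

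Around these 10 genes, 9 lists of related genes held 117 symbols, of which 109 had a row and 79 were tested. Of the 79, limma called 1 higher in KO (*Adamts9*) and 1 lower (*Lama2*), against 1.23% and 1.21% of all tested genes, and with the replicate block 9 rose and 8 fell, against 4.72% and 5.72% of all tested genes. None of the other genes called with the block passed without it. Without Flox 2, Flox 3 or KO 3 neither *Adamts9* nor *Lama2* passed the test without the block. In replicates 2 and 3 alone 22 were higher and 17 lower, against 11.9% and 17.2%. Their median log2 fold change was 0.21.

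Of the other MMPs 6 of 12 in the table could be tested, and 1 fell with the block. *Mmp28*, also named epilysin, was at 4.02, 6.42 and 6.54 FPKM in Flox and at 2.38, 2.84 and 2.64 FPKM in KO, without overlap (log2 fold change -0.86, adjusted p = 0.0826, and 0.0395 with the block). The most abundant, *Mmp11*, was at 16.1 to 35.2 FPKM in Flox and 23.1 to 36.3 FPKM in KO, and *Mmp16* and *Mmp24*, both membrane-type proteases, had log2 fold changes of 0.14 and -0.02. *Timp4*, the TIMP not among the 10, was listed at no more than 0.03 FPKM.

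Beside the TIMPs, both tested genes of the list of other inhibitors rose with the block. *Reck*, a membrane-anchored glycoprotein that inhibits MMP2, MMP9 and MMP14, was at 4.92, 8.62 and 8.74 FPKM in Flox and at 13.1, 26.7 and 31.3 FPKM in KO. All KO libraries were above all Flox libraries, and the log2 fold change was 1.501 (SE 0.358, adjusted p = 0.0823, and 0.0112 with the block). *Rarres1*, which is related to the carboxypeptidase inhibitor latexin and is not an established inhibitor of MMPs, had a difference of 0.92 on the log2 scale (adjusted p = 0.136, and 0.0494 with the block). *Pzp*, a plasma protease inhibitor and next in the list by level, was listed at no more than 1.22 FPKM.

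Among 12 tested genes of MMP activation and anchoring at the cell surface, 1 rose and 2 fell with the block. *Pcsk6*, a proprotein convertase, was at 11.8 to 16.6 FPKM in Flox and 20.6 to 27.5 FPKM in KO (log2 fold change 0.75, adjusted p 0.0235 with the block). *Itgb3*, a subunit of the integrin that binds MMP2, and *Cldn1*, a claudin of tight junctions, fell by 0.70 and 0.70 on the log2 scale (adjusted p = 0.0456 and 0.0475 with the block). The 3 most abundant, *Cd63*, *Bsg* and *Lrp1*, had log2 fold changes of -0.37, -0.13 and -0.30 and passed neither test. From the list of serpins, *Serpine2*, an inhibitor of thrombin and urokinase, had -0.52 as its log2 fold change (adjusted p = 0.384). *Serpinf2* was listed at no more than 0.33 FPKM.

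The ADAM and ADAMTS families are metalloproteinases related to the MMPs, and several are inhibited by TIMP3. Of 8 ADAM genes, 6 had all KO libraries above all Flox libraries, against 13.1% of all tested genes, but only *Adam15* passed, with the block (32.4, 43.4 and 43.9 FPKM in Flox and 53.0, 74.98 and 72.54 FPKM in KO, log2 fold change 0.73, adjusted p = 0.0208). The 2 most abundant, *Adam9* and *Adam10*, had log2 fold changes of 0.28 and 0.40. Among 10 tested ADAMTS genes, *Adamts9*, which cuts the proteoglycans aggrecan and versican, rose in both fits, from 2.11, 3.67 and 3.07 FPKM in Flox to 12.6, 8.06 and 12.5 FPKM in KO (log2 fold change 1.605, SE 0.237, adjusted p = 0.027, and 0.0297 with the block). *Adamts1* and *Adamts5*, proteases of the same substrates, fell by 0.83 and 0.86 with the block (adjusted p = 0.0371 and 0.0261). Without the block their adjusted p was 0.595 and 0.655. *Adamts2*, a procollagen protease, differed by 0.54 on the log2 scale (adjusted p = 0.55).

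Of 9 tested cathepsins and cystatins, *Ctsz*, a lysosomal carboxypeptidase, rose with the block (log2 fold change 0.63, adjusted p = 0.0393), and the 3 most abundant, *Ctsd*, *Ctsb* and *Cst3*, had log2 fold changes of 0.39, 0.37 and 0.26. Among 15 matrix substrates, *Lama2*, the laminin α chain of muscle basement membrane, fell in both fits, from 11.3, 9.01 and 12.6 FPKM in Flox to 0.09, 1.61 and 0.60 FPKM in KO (log2 fold change -2.84, SE 0.331, adjusted p = 0.0135). *Fn1*, fibronectin, *Lamb1*, a laminin β chain, and *Spp1*, osteopontin, rose with the block by 0.91, 0.77 and 1.31 (adjusted p = 0.0411, 0.0238 and 0.00662). Without the block their adjusted p was 0.532, 0.0793 and 0.649. *Spp1* was at 136, 12.6 and 9.35 FPKM in Flox and 352, 31.4 and 24.8 FPKM in KO, highest in both replicate 1 libraries. *Bgn*, biglycan, and *Col1a1*, a chain of type I collagen that MMP13 cuts, had log2 fold changes of -0.04 and 0.96 and passed neither test.

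Of 15 tested AP-1 subunits and other inducers of MMP transcription, none was called higher with the block and 2 were called lower. The shares of all tested genes were 4.72% and 5.72%. The genes called lower were *Rela*, a subunit of NF-κB, at 77.1 to 102 FPKM in Flox and 49.8 to 59.7 FPKM in KO (log2 fold change -0.64, adjusted p = 0.032 with the block), and *Ets1*, an ETS factor (-0.69, adjusted p = 0.0416 with the block). *Ets2* and *Cebpb*, the other most abundant members, had log2 fold changes of -0.38 and 0.27.

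**Figure D5:**
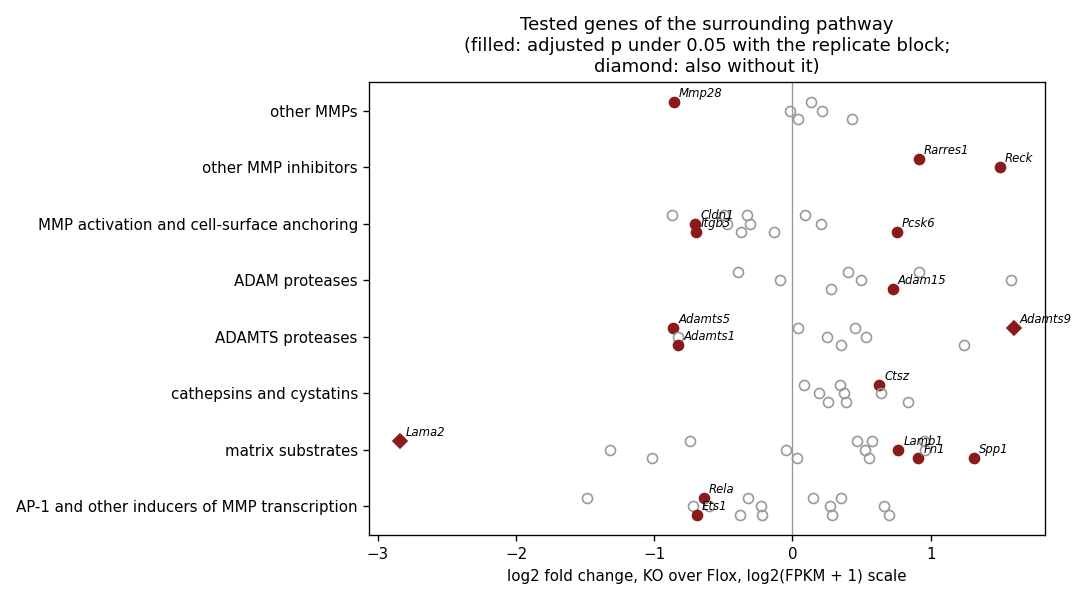
Log2 fold change, KO over Flox, on the log2(FPKM + 1) scale for tested genes of the related lists, 1 point a gene and 1 line a list (1 list of 2 genes is not drawn); filled points passed an adjusted p of 0.05 with the replicate block and diamonds also without it. The 9 genes that rose and 8 that fell are named, with *Adamts9* (1.605) and *Lama2* (-2.84) as the diamonds.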

How the data were processed

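RNA-seq of 6 libraries of primary mouse aortic VSMCs, 3 Flox and 3 KO, was analysed from the table of FPKM that the authors deposited, with values rounded to 2 decimals. Before that, poly-A selected libraries had been read from both ends on the BGISEQ-500 platform, and the authors cleaned the reads with SOAPnuke, aligned with HISAT and Bowtie2 and quantified genes with RSEM. Versions and genome build are not given in the sources used here, and labels and methods name different passages, RNA extraction kits and library kits. Endothelium and adventitia were removed during isolation. All 6 value columns were matched to a sample by the label, and 0 were left unused.

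The analysis used log2(FPKM + 1). The genotypes were compared by limma 3.58.1 under R 4.3.3 for 12565 genes whose mean over the libraries reached 0.5 FPKM (eBayes with trend and robust settings, two-sided, Benjamini-Hochberg adjustment over all of them). The main fit has no block. The replicate numbers in the labels were taken to pair the libraries, since same-numbered libraries deviated together from their group means (correlations 0.615, 0.46 and 0.527). Flox 2 with KO 3 (0.461) and Flox 3 with KO 2 (0.439) were as high, so the numbers tell replicate 1 from the rest only. A fit with the number as a block was made too. Alternatives were a pseudocount of 0.1, no filter, TPM, quantile normalization, leaving out each library, replicates 2 and 3 alone and the cutoffs of the methods. A block for replicate 1 was added after the data were seen. The fit was tested on simulated data with 200 changed genes. The simulated noise was independent between libraries and did not set replicate 1 apart, so that test does not show how the fit behaves on these libraries. Library depth was inferred from the spacing of low FPKM values among 4343 genes with 1 transcript of known length, limited to a set range of lengths. Each library had 578 to 669 such values. Of those that came to a few fragments, 67.3% to 70.8% were within 0.15 of a whole fragment. The depth was chosen to make this share highest, so the 30% expected by chance at a fixed depth is not its chance level. The depth estimate covers counting error only. Between replicates 2 and 3, 40.3% of 2682 genes in Flox and 49.0% of 2700 in KO were past the 5% limit of counting noise, so each library counted as 1 replicate.

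The 10 genes, the related lists and the marker lists were chosen with earlier results of these data known. Genes named are the 10, list genes called in either fit, the 3 most abundant of each list, *Smyd2* and the 2 genes most alike each member. 1 gene of that choice is not reported here. The flanking and overlapping genes, single low Mmp genes, single marker genes and AP-1 subunits were named after their values were seen. Positions are from GENCODE M21 (GRCm38), matched by RefSeq transcripts, and promoters from RefSeq (GRCm38.p6), with 7 of 10 genes matched. Other calculations used Python 3.11.15 with pandas 2.3.3, numpy 2.4.6, scipy 1.17.1 and matplotlib 3.10.9.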

Additional observations from a re-analysis of the deposited data

How the results depend on the processing

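The number of the 9 tested genes called at an adjusted p under 0.05 was 0 with all libraries and under a pseudocount of 0.1, no filter, TPM, quantile normalization and the cutoffs of the methods. It was 2 with the replicate block, 7 in replicates 2 and 3 alone, 4 with the added block for replicate 1, and 0 to 3 when 1 library was left out, the 3 without KO replicate 1. For the 79 related genes the number was 2, and it became 17, 39 and 29 in the same 3 settings, 0 at the cutoffs of the methods and 0 to 8 without 1 library (0 without Flox 2, Flox 3 or KO 3, 1 without KO 2, 4 without Flox 1 and 8 without KO 1). For all genes 306 became 1312, 3650 and 2550 in those settings, 53 at the cutoffs of the methods and 34 to 686 without 1 library. TPM changed the split of the calls over all genes from 154 higher and 152 lower to 247 and 99. The replicate block changed the call of *Mmp13* and *Timp1* and of no other of the 9. Of 117 alternative values of single genes, 95 kept direction and side of the threshold, 16 passed it newly and 6 changed sign. The latter were *Mmp2* after TPM (0.0404), after quantile normalization (0.0423) and in the range without 1 library (-0.294 to 0.0515, against -0.0838), and *Mmp3* in the range without 1 library (-0.55 to 1.11, against 0.08). The log2 difference of the protease to inhibitor ratio, -0.22, lay between -0.57 and 0.04 without 1 library, was -0.21 without the most abundant gene of each class, -0.36 after quantile normalization and 0.04 as a difference of mean log2(FPKM + 1), all within 1 SD of the KO libraries. Why replicate 1 and the others differ was not tested. Depth limits *Mmp9* and, less so, *Mmp10*.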
